A study of Mus musculus with 8 samples.

Results

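The 10 genes described here are alpha and beta tubulin isotypes grouped as those of cells other than neurons, 4 alpha genes (Tuba1a, Tuba1b, Tuba1c and Tuba4a) and 6 beta genes (Tubb2a, Tubb2b, Tubb4a, Tubb4b, Tubb5 and Tubb6). They were chosen by gene name out of 78317 genes in the deposited expression table. The rule did not use their values, but earlier results of these data were known. All 10 averaged 1 TPM or more, the filter that left 17811 genes for testing. TPM is a transcript abundance scaled for transcript length and library, so levels of different genes can be set side by side. RNA came from the basilar membrane of the mouse cochlea at postnatal day 6, in 8 libraries. The 4 libraries titled hete carry the genotype label WT, and the 4 titled homo carry the label Dnajc17 cKO, a conditional knockout of a J-domain cochaperone gene. The labels thus leave it unsettled whether hete animals carry a mutant allele. Strain, sex, the driver of the deletion and the deleted exons are not in the labels. Libraries are numbered 1 to 4 within each group and may or may not stem from separate animals, so the p-values below reflect library-to-library spread, which may be technical. The series title concerns RNA splicing in hair cells and hearing, and the homo against hete contrast addresses transcript levels under the 2 genotypes.

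Microtubules are hollow polymers of alpha and beta tubulin dimers. In the organ of Corti, pillar and Deiters cells are stiffened by dense microtubule bundles that run from their base to the surface of the epithelium, and these bundles are laid down during the first postnatal weeks. Isotypes of each class are alike in the folded core and differ most in an acidic tail at the carboxyl end, which projects from the microtubule surface. Enzymes add chains of glutamate to glutamates of that tail, and on alpha tubulin they remove and restore a terminal tyrosine. In the gene ontology terms of the deposited table all 10 genes share GTP binding, GTPase activity, structural constituent of cytoskeleton, microtubule and mitotic cell cycle, and 4 also carry myelin sheath.

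The genes are listed in the table as ENSMUSG00000072235 (Tuba1a), ENSMUSG00000023004 (Tuba1b), ENSMUSG00000043091 (Tuba1c), ENSMUSG00000026202 (Tuba4a), ENSMUSG00000058672 (Tubb2a), ENSMUSG00000045136 (Tubb2b), ENSMUSG00000062591 (Tubb4a), ENSMUSG00000036752 (Tubb4b), ENSMUSG00000001525 (Tubb5) and ENSMUSG00000001473 (Tubb6).

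The coding ends are shown because they are where isotypes of a class tend to differ most and where tubulin-modifying enzymes act. Each is the last 60 coding bases and the stop codon, read 5′ to 3′ from GENCODE M21 transcripts on build GRCm38, with in-frame glutamate codons (GAA or GAG) in capitals. Tubb3, the isotype typical of neurons, is given for comparison, and stretches are printed for Tuba4a and 5 beta isotypes.
Tuba4a: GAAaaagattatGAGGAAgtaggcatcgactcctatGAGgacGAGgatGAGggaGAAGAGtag
Tubb2a: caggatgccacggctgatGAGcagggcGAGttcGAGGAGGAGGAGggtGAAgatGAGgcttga
Tubb2b: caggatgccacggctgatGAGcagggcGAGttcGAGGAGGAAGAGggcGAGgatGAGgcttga
Tubb4a: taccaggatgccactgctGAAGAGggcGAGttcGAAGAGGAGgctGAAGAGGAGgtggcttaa
Tubb4b: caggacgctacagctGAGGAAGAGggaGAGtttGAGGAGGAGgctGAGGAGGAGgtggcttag
Tubb5: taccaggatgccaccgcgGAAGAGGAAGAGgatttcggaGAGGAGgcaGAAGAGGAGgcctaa
Tubb3: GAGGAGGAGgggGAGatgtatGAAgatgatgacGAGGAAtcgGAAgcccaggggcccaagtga

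These stretches lie in the last coding exon of each gene. On the minus strand of GRCm38 they are chr1:75215622-75215684 for Tuba4a, chr13:34074468-34074530 for Tubb2a, chr13:34127471-34127533 for Tubb2b, chr17:57080690-57080752 for Tubb4a, chr2:25222308-25222370 for Tubb4b and chr17:35834982-35835044 for Tubb5. On the plus strand it is chr8:123421620-123421682 for Tubb3. Tuba4a ends in a glutamate codon (gag in its annotated sequence) before the stop, so it encodes alpha tubulin without the terminal tyrosine. Glutamate codons made up 10 of the last 20 codons in Tubb4b, the most among the isotypes printed, 9 in Tubb4a and Tubb5, and 8 in Tuba4a, Tubb2a, Tubb2b and Tubb3. Tubb2a and Tubb2b differ in 3 of these 20 codons and in 0 of the encoded residues, so this pair has the same tail. The first codons of Tuba4a read atgcgcgagtgc, and those of Tubb5 atgagggaaatc. The peptide encoded at the start of alpha and beta tubulins is what the factor TTC5 recognises on the ribosome when excess tubulin sets off decay of tubulin messenger RNA.

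Close copies limit how far some isotypes can be told apart by short reads. Over the coding sequence Tuba1a and Tuba1b were 98.3% identical, Tuba1b and Tuba1c 97.9%, Tuba1a and Tuba1c 97.1%, and Tubb2a and Tubb2b 96.5%. No other pair of members exceeded 85.2%. Of all stretches of 100 bases in the transcript, 65.1% in Tuba1a, 69.5% in Tuba1b and 53.4% in Tuba1c also occur in a transcript of another gene, against 36.9% in Tubb2a, 27.8% in Tubb2b and 29.2% in Tubb4b. Tuba4a, Tubb4a, Tubb5, Tubb6 and Tubb3 had no such stretch. The first group lies together on chromosome 15, where no protein-coding gene separates Tuba1a from Tuba1b or from Tuba1c in RefSeq order, and Tubb2a and Tubb2b are neighbours on chromosome 13. Gm49450, a protein-coding gene model that shares 32.2% of the stretches of Tuba1b and was chosen after its values were seen, had 22.41 to 78.03 TPM in hete and 28.74 to 71.93 in homo. From lowest to highest library, the fold range of Gm49450 was wider than that of any of the 10 isotypes, which ranged 1.19- to 1.75-fold. How reads common to several copies were assigned is not given in the sources used here, so values within the Tuba1 trio and within the Tubb2 pair are uncertain.

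Alpha tubulin transcripts were the more abundant class in every library. The summed level of the 4 alpha genes was 1648, 1788, 1687 and 1594 TPM in the hete libraries, replicates 1 to 4, against 1860, 1719, 1745 and 1748 in the homo libraries. The 6 beta genes summed to 964, 1089, 1061 and 951 TPM across hete against 1066, 1066, 1042 and 1044 across homo. Both sums overlapped between the groups, and in both the lowest value was that of hete replicate 4. Together the 10 genes made up 0.276% of all transcripts by TPM, and the beta sum stood at 0.57 to 0.63 of the alpha sum in every library. Means were 1679 ± 81.9 TPM for hete against 1768 ± 62.7 for homo for alpha (± SD, n = 4 a group), and 1016 ± 68.9 and 1055 ± 13.1 for beta (± SD, n = 4 a group). The difference between group means was 88.6 TPM for alpha and 38.5 for beta. For alpha it was 57.9 without homo replicate 1, 60.02 without hete replicate 4 and 124.7 without hete replicate 2. For beta it was 21.2 without hete replicate 1, 16.6 without hete replicate 4 and 62.6 without hete replicate 2.

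The order of levels was steep at the top. Tuba1a averaged 917 TPM over the 8 libraries and ranked 145 of the 17811 tested genes, followed by Tuba1b at 608, Tubb4b at 395 and Tubb5 at 335. Below them came Tubb2a at 161, Tuba1c at 106, Tuba4a at 92.6, Tubb2b at 87.4, Tubb4a at 35.04 and Tubb6 at 22.4 TPM. Tuba1a exceeded Tuba1b in all 8 libraries by 1.41 to 1.60 times. Some neighbours in this order could not be separated: Tubb4b was above Tubb5 in 7 of 8 libraries, Tuba1c above Tuba4a in 7 of 8, and Tuba4a above Tubb2b in only 5 of 8. The ranges of Tubb4a and Tubb6 overlapped as well, although Tubb4a was the higher in each library. Tubb3 averaged 28.0 TPM, between Tubb4a and Tubb6.

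**Figure D1:**
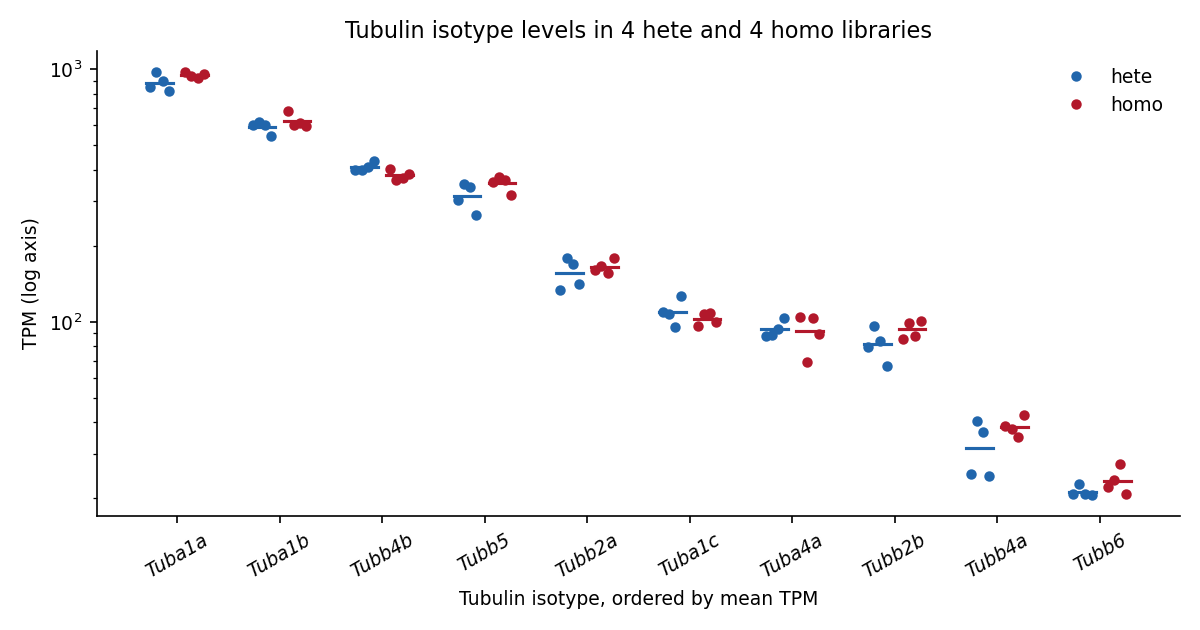
TPM on a log axis for each isotype, ordered by mean, with 4 hete points (blue) and 4 homo points (red) and a line at each group mean. Levels run from 917 TPM on average for Tuba1a to 22.4 for Tubb6, and the groups overlap for every isotype.

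None of the 10 isotypes passed the test for a change between homo and hete. The test was limma-trend on log2(TPM + 1) over all 17811 genes, in which a Benjamini-Hochberg adjusted p under 0.05 counts as changed. It called 2 genes in all, 0.0112% of those tested, made of 0.00561% in each direction, so a count of 0 among 10 members is near the background. No isotype had an unadjusted p under 0.05 either (range 0.0861 to 0.758), against 6.05% of all tested genes (3.56% higher, 2.49% lower), and none had groups that did not overlap, against 3.99% (2.58% higher, 1.41% lower). Tubulin estimates were higher in homo for 7 isotypes and lower for 3, beside 56.3% and 43.7% of all tested genes. The median log2 fold change, homo over hete, was 0.10 for the 10 isotypes and 0.02 for all tested genes, on the log2(TPM + 1) scale that understates changes of low genes. Without hete replicate 4 the isotype median was 0.06, and without hete replicate 2 it was 0.15. In 9 of the 10 isotypes the 95% interval lay within 0.5 of 0 on that scale, the exception being Tubb4a.

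**Figure D2:**
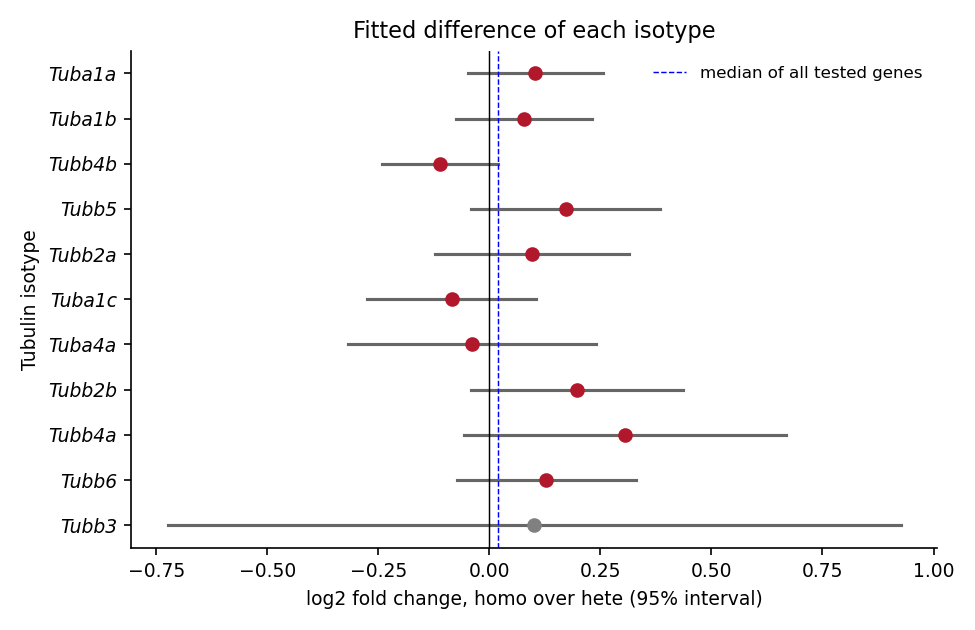
Fitted log2 fold change of each isotype, homo over hete (points), with its 95% interval (lines) and the median of all tested genes (dashed). Every interval includes 0, from -0.24 to 0.02 for Tubb4b to -0.72 to 0.93 for Tubb3 (grey).

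Tuba1a and Tuba1b, the main alpha isotypes, varied little between libraries, by 1.19- and 1.26-fold from lowest to highest. Tuba1a, abundant in developing neurons but also widely expressed, had 849.9, 974.32, 896.06 and 819.61 TPM in the hete libraries, replicates 1 to 4, against 975.95, 939.94, 919.1 and 960.18 in the homo libraries. Only homo replicate 1 stood above the highest hete value, and the hete libraries spread more widely than the homo ones. Its log2 fold change was 0.10 (SE 0.07, adjusted p = 0.87 by limma-trend), or 0.07 without hete replicate 4 and 0.15 without hete replicate 2. Tuba1b, an isotype of most cell types, had 601.7, 617.07, 602.42 and 544.05 TPM across hete against 683.17, 602.14, 613.34 and 598.44 across homo. Apart from the high homo replicate 1 and the low hete replicate 4, its values ran from 598.44 to 617.07 TPM. The fold change of 0.08 (SE 0.07, adjusted p = 0.905 by limma-trend) was 0.03 without homo replicate 1 and 0.04 without hete replicate 4. Without hete replicate 2 it was 0.10. Summed over Tuba1a, Tuba1b and Tuba1c, which removes assignment among these 3 but not to Gm49450 and other copies, the level was 1586 ± 87.1 TPM for hete against 1676 ± 53.2 for homo (± SD, n = 4 a group), and the groups overlapped.

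The minor alpha isotypes had estimates just below 0 that moved with single libraries. Tuba1c had 109.15, 107.59, 95.35 and 125.94 TPM across hete against 95.92, 107.14, 108.38 and 100.04 across homo, with the highest value in hete replicate 4, where Tuba1a and Tuba1b were lowest. All 4 homo values lay inside the hete range (log2 fold change -0.08, SE 0.09, adjusted p = 0.918 by limma-trend). Its estimate was -0.02 without hete replicate 4, -0.05 without homo replicate 1 and -0.15 without hete replicate 3. Tuba4a, the alpha gene without a tyrosine codon at its end, had 87.57, 88.59, 93.33 and 103.93 TPM across hete against 104.73, 69.56, 103.69 and 89.11 across homo. Homo replicates 1 and 2 were the highest and the lowest of all 8 libraries, and the group means, 93.4 ± 7.48 and 91.8 ± 16.4 TPM (± SD, n = 4 a group), lay closer than the spread within homo. Its fold change of -0.04 (SE 0.12) became 0.09 without homo replicate 2 and 0.01 without hete replicate 4. As a share of the alpha sum, Tuba1a held 53.2% on average over the 8 libraries, Tuba1b 35.3%, Tuba1c 6.19% and Tuba4a 5.38%. The share of Tuba1a ranged only from 51.4 to 54.9%.

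Tubb4b and Tubb5, which together made most of the beta sum, differed from each other in direction. Tubb4b, a broadly expressed isotype known for its place in the axonemes of cilia, had 400.78, 399.09, 408.56 and 433.21 TPM across hete against 401.07, 364.72, 371.2 and 383.01 across homo. Homo replicates 2, 3 and 4 lay below every hete library, and homo replicate 1 lay within the hete range. The group means were 410 ± 15.7 and 380.0 ± 16.0 TPM (± SD, n = 4 a group), and the log2 fold change was -0.11 (SE 0.06, limma-trend unadjusted p = 0.0861, adjusted p = 0.87). Its library-to-library spread, 3.84% of the mean in hete and 4.199% in homo, was the smallest of the 10 isotypes in hete. Tubb4b lies on chromosome 2, as does Dnajc17, and a bearing of the shared chromosome on its level was not tested.

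Tubb5, an isotype of most tissues and of dividing cells, had 304.77, 350.28, 342.11 and 264.68 TPM across hete against 358.36, 374.51, 364.02 and 318.81 across homo. Homo replicates 1 to 3 lay above all hete libraries, homo replicate 4 did not, and hete replicate 4 was lowest. Means were 315 ± 39.2 and 354 ± 24.3 TPM (± SD, n = 4 a group). The log2 fold change was 0.17 (SE 0.10, adjusted p = 0.87 by limma-trend). It was 0.09 without hete replicate 4, and 0.22 without hete replicate 2 or without homo replicate 4. Tubb5 over Tubb4b, a ratio chosen after the values were seen and given without a test, was 0.76, 0.88, 0.84 and 0.61 in hete and 0.89, 1.03, 0.98 and 0.83 in homo. The groups overlapped in this ratio through homo replicate 4. Tubb4b held 40.6% ± 3.90 of the beta sum in hete and 36.0% ± 1.46 in homo, and Tubb5 31.0% ± 2.10 and 33.6% ± 2.13 (± SD, n = 4 a group). Both shares overlapped between the groups.

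**Figure D3:**
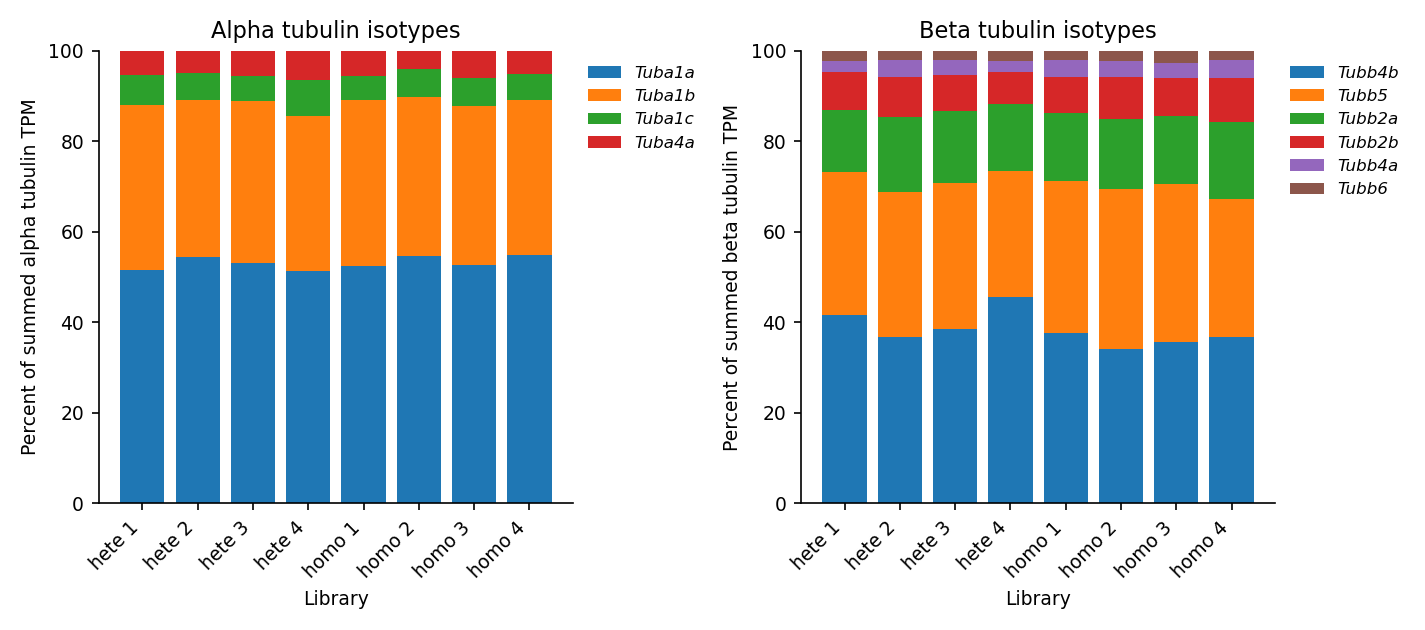
Percent of the summed alpha (left) and beta (right) tubulin TPM held by each isotype in each of the 8 libraries, stacked to 100. Tuba1a holds 51.4 to 54.9% of alpha in every library, while Tubb4b ranges from 34.2 to 45.6% of beta, highest in hete replicate 4.

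The isotypes known for high levels in nervous tissue were lower in some hete libraries than in others. Tubb2a had 133.18, 179.45, 169.19 and 140.87 TPM across hete against 160.17, 166.53, 156.66 and 178.54 across homo, so that hete replicates 1 and 4 were the lowest and hete replicates 2 and 3 were as high as homo. Its neighbour Tubb2b, an isotype of neural progenitors and migrating neurons, had 79.65, 96.35, 83.79 and 66.69 TPM across hete against 85.64, 98.83, 87.97 and 100.43 across homo. Homo replicates 2 and 4 exceeded all hete values, and hete replicate 4 was lowest. The log2 fold changes were 0.10 (SE 0.10) for Tubb2a and 0.20 (SE 0.11) for Tubb2b, with limma-trend adjusted p of 0.918 and 0.87. The Tubb2a estimate was 0.03 without hete replicate 1, 0.05 without hete replicate 4, 0.06 without homo replicate 4 and 0.17 without hete replicate 2. That of Tubb2b was 0.11 without hete replicate 4 and 0.28 without hete replicate 2. Summed, the pair stood at 237 ± 32.7 TPM for hete against 259 ± 16.5 for homo (± SD, n = 4 a group).

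Tubb4a, an isotype of neurons and myelinating glia of the brain, had the widest residual spread of the 10. Its values were 24.91, 40.65, 36.47 and 24.45 TPM across hete against 38.56, 37.57, 34.83 and 42.86 across homo. Hete replicates 1 and 4 stood far below the rest, and hete replicates 2 and 3 lay among the homo libraries. The log2 fold change of 0.31 (SE 0.16, adjusted p = 0.87 by limma-trend) was the largest of the 10. Its 95% interval ran from -0.06 to 0.67, and the estimate was 0.20 without hete replicate 4 and 0.43 without hete replicate 2. Tubb6, the least abundant isotype, had 20.89, 22.73, 20.86 and 20.63 TPM across hete against 22.08, 23.61, 27.34 and 20.79 across homo. Homo replicate 3 was highest, and the fold change of 0.13 (SE 0.09, adjusted p = 0.874 by limma-trend) was 0.06 without it. The Tubb6 estimate was 0.18 without homo replicate 4. Hete replicate 4 held the lowest value of 6 isotypes and the highest of 2, Tuba1c and Tubb4b.

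Residual spread on the log2 scale, within groups, ran from 0.06 for Tubb4b to 0.27 for Tubb4a, with a median of 0.14 over the 10 isotypes. Over all tested genes the median was 0.16, and over the 6728 genes at or above the level of Tubb6 it was 0.12. Tubb3 had 0.56. It stood at 14.01, 38.42, 30.39 and 25.62 TPM across hete against 26.3, 26.98, 17.92 and 44.32 across homo, a 3.16-fold range across libraries where the 10 isotypes ranged 1.19- to 1.75-fold. Its log2 fold change was 0.10 (SE 0.35, adjusted p = 0.98 by limma-trend), and it turned to -0.17 without hete replicate 1 and to -0.12 without homo replicate 4.

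Markers of other cells in the dissected tissue were set beside each isotype over the 8 libraries. In bulk RNA, fewer cells of a type and less RNA per cell cannot be told apart. The neuron list (13 genes, among them Uchl1 and Isl1, all tested, 12 higher in homo and 1 lower, none called) had list means, in log2(TPM + 1), of 3.82 to 4.55 for hete against 4.07 to 4.89 for homo. Its summed level was 366 to 545 TPM in hete and 410 to 715 in homo, with no marker listed at 0 throughout. It was lowest in hete replicate 1 and highest in homo replicate 4. Of all tested genes, 56.3% were higher in homo. Among the 13 markers, 3 had an unadjusted limma-trend p under 0.05, all higher in homo, against 3.56% of all tested genes. Groups did not overlap for 1 of the 13, also higher in homo, against 2.58%. Across 55 relations, 10 isotypes and Tubb3 against 5 marker lists, 3 passed an adjusted p of 0.05 when Pearson's r was tested by exact permutation of libraries, two-sided.

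Tubb3 followed the neuron markers in full rank order over the 8 libraries (r = 0.96, exact permutation p = 0.000174, adjusted 0.00955; rho = 1, p = 4.96e-05, the smallest that 8 libraries allow, adjusted 0.00273). Without the 2 libraries farthest from the median of the marker list, hete replicate 1 and homo replicate 4, r was 0.90. Tubb2a also followed them (r = 0.90, exact permutation p = 0.00149, adjusted 0.0409; rho = 0.95, p = 0.00114, adjusted 0.0314), with r = 0.85 without those 2 libraries. Of the 10 isotypes it was thus the 1 whose level passed this test with neuron markers, and these values do not place Tubb2a outside neurons in this tissue. Values within the Tubb2 pair are uncertain, and whether this relation differs between Tubb2a and the other isotypes was not tested. With each group centred on its own mean, r for Tubb2a was 0.89 and the adjusted permutation p 0.0658. That p is approximate, because the centred values were permuted across groups. Tubb4a had r = 0.82 (exact permutation p = 0.00627, adjusted 0.069; rho = 0.83, p = 0.0154, adjusted 0.169), and 0.68 without the same 2 libraries, and did not pass. Tuba1a had 0.67 and Tubb2b 0.64 (exact permutation p = 0.0723 and 0.0852, adjusted 0.287 for both; rho = 0.55 and 0.67, p = 0.171 and 0.0831, adjusted 0.47 and 0.381). Those values became 0.56 and 0.56 without the same 2 libraries. Some of these isotypes also moved with Schwann and satellite glia markers, without passing the test. Against that list Tubb3 had r = 0.90 (exact permutation p = 0.00454, adjusted 0.0624; rho = 0.86, p = 0.0107, adjusted 0.147), and 0.62 without hete replicate 1 and homo replicate 3, the 2 libraries farthest from its median. Tubb2a had 0.74 (exact permutation p = 0.0375, adjusted 0.229; rho = 0.79, p = 0.0279, adjusted 0.225), and 0.55 without them. Tubb4a had 0.70 (exact permutation p = 0.0518, adjusted 0.285; rho = 0.88, p = 0.00724, adjusted 0.133), and 0.70 without them. Whether the relations with neuron markers differ from those with glia markers was not tested, so they are not shown to be particular to neurons. The part of neuronal or glial RNA in the differences between homo and hete was not tested.

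**Figure D4:**
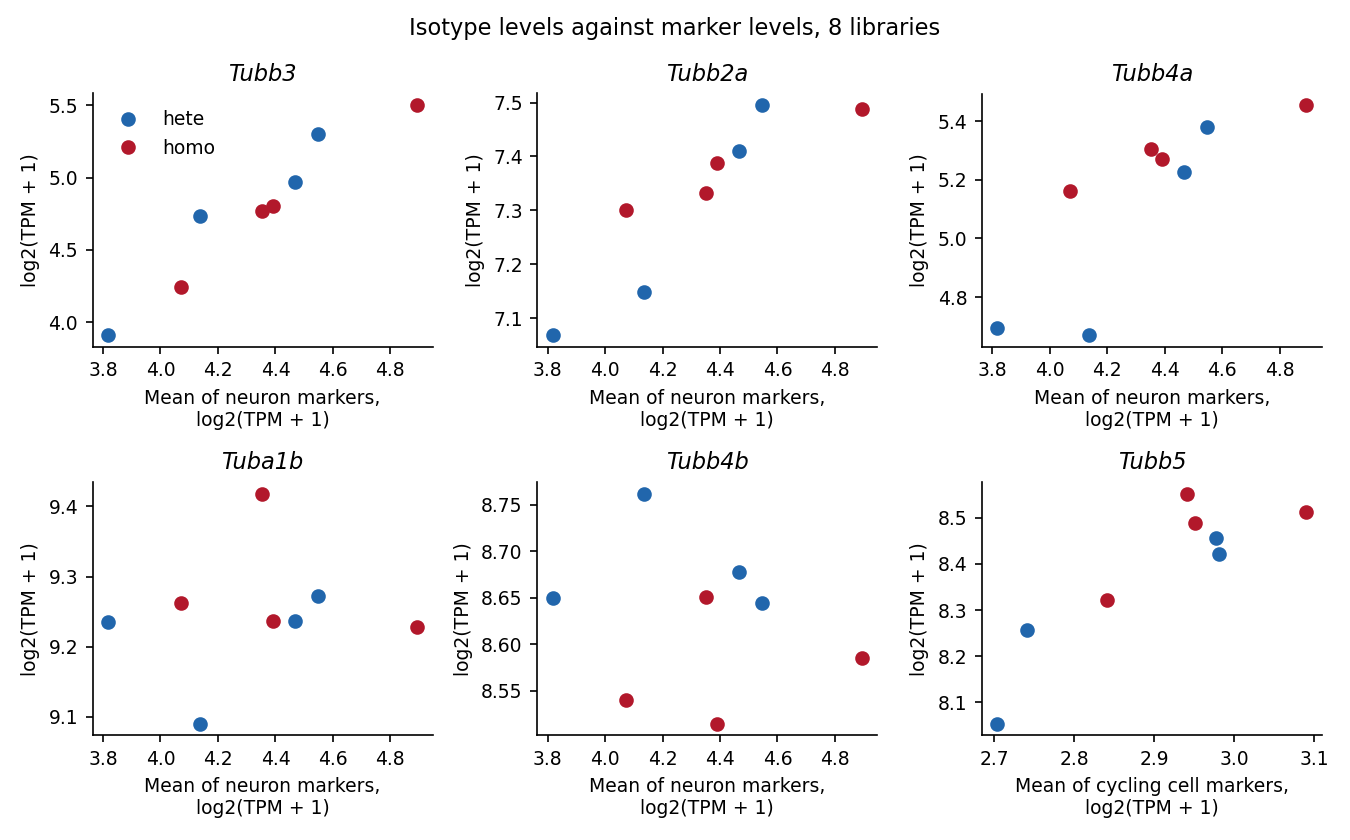
Level of 6 isotypes (y axis, log2(TPM + 1)) against the mean level of neuron markers or, for Tubb5, of cycling cell markers (x axis, log2(TPM + 1)), 1 point per library, hete blue and homo red. Tubb3 and Tubb2a rise along the neuron markers (r = 0.96 and 0.90), Tuba1b and Tubb4b do not order with them (r = 0.14 and -0.19).

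Tubb5 was the third relation that passed, with the cycling cell markers (r = 0.88, exact permutation p = 0.0025, adjusted 0.0459). Its rank correlation did not pass (rho = 0.67, exact permutation p = 0.0831, adjusted 0.381), and r was 0.63 without hete replicates 4 and 1, the lowest libraries on both measures, so the relation rests on those samples. Cycling markers (12 genes, among them Cdk1 and Mcm6, all tested, 10 higher in homo and 2 lower, none called) summed to 89.0 to 110 TPM in hete and 99.6 to 126 in homo. Of the 12, 2 had an unadjusted limma-trend p under 0.05, both higher in homo, against 3.56% of all tested genes. Groups did not overlap for 1, also higher in homo, against 2.58%. The relation also missed the threshold with group-centred values (r = 0.86, adjusted approximate permutation p = 0.0658). It missed it after rescaling to protein-coding nuclear genes as well (r = 0.86, adjusted exact permutation p = 0.0651).

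Markers of pillar and Deiters cells, the microtubule-rich supporting cells, were all detected. The 14 genes summed to 2221 to 2535 TPM in hete and 2098 to 2325 in homo, led by S100a1 and S100b, and 8 were higher and 6 lower in homo with none called. S100a1 had 662 ± 95.9 TPM for hete against 583 ± 61.6 for homo, and S100b 591 ± 77.2 and 544 ± 44.3 (± SD, n = 4 a group). Fgfr3, a receptor typical of these cells, had 46.4 ± 8.91 TPM and 50.6 ± 6.08, and Emid1 61.5 ± 4.41 and 65.0 ± 5.74 (± SD, n = 4 a group). Hes5, a Notch target, had 3.89 ± 0.946 and 2.60 ± 0.934 (± SD, n = 4 a group). Hey2 had 17.7 ± 1.78 and 20.2 ± 0.629, and Prox1 3.39 ± 0.513 and 4.265 ± 0.539 (± SD, n = 4 a group). Hey2, higher in homo, was the only 1 of the 14 with an unadjusted limma-trend p under 0.05, against 6.05% of all tested genes. None of the 10 isotypes passed the test with this list, the highest r being 0.63 for Tubb2a (exact permutation p = 0.0846, adjusted 0.287; rho = 0.52, p = 0.197, adjusted 0.47), which fell to 0.09 without hete replicate 1 and homo replicate 3. Tubb3, the neuronal comparison, had a higher r of 0.82 (exact permutation p = 0.0135, adjusted 0.124), which fell to 0.16 without the same 2 libraries, and did not pass. Fabp7 belongs both to this list and to the Schwann and satellite glia list. How far other genes of this list, S100b among them, come from glia in this tissue was not tested. No isotype passed with hair cell or Schwann and satellite glia markers either. Of 12 hair cell markers, 4 were higher and 8 lower in homo with none called, and their sum was 427 to 612 TPM in hete and 329 to 497 in homo. Of the 12, 2 had an unadjusted limma-trend p under 0.05, both lower in homo, against 2.49% of all tested genes. They were Ocm, with a log2 fold change of -0.92 (SE 0.34), and Otof, with -0.30 (SE 0.10). The 4 higher in homo were Calb2 (0.11, SE 0.32), Myo7a (0.15, SE 0.12), Pvalb (0.04, SE 0.25) and Tmc1 (0.02, SE 0.17). Calb2 was lowest in hete replicate 1 (51.75 TPM) and highest in homo replicate 4 (134.48 TPM), as were Tubb3 and the neuron markers. The part of neuronal RNA in the hair cell list was not tested. Hair cell markers averaged highest in hete replicate 4, at 4.62 on the log2(TPM + 1) scale against 4.02 to 4.46 in the others, and their part in the low tubulin values of that library was not tested.

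Among the general supporting cell markers, not in the lists related to the isotypes, some genes also stood apart between the groups. Of 11 genes, 8 were higher and 3 lower in homo with none called, and their sum was 7170 to 8303 TPM in hete and 8029 to 8755 in homo. Groups did not overlap for 4 of the 11, all higher in homo, against 2.58% of all tested genes, and the same 4 had an unadjusted limma-trend p under 0.05, against 3.56%. They were the tectorial membrane genes Tecta (0.56, SE 0.18), Tectb (0.21, SE 0.07) and Otog (0.28, SE 0.07) and the Notch ligand Jag1 (0.24, SE 0.07), all given as log2 fold changes. The 3 lower in homo were Epyc (-0.03, SE 0.11), Gjb6 (-0.02, SE 0.14) and Cd44 (-0.12, SE 0.14). The part of supporting cell RNA in the tubulin estimates was not tested. The Hes5, Hey2, Prox1, Otof, Myo7a, Pvalb, Tmc1, Tecta, Otog, Jag1, Gjb6 and Cd44 values were chosen after they were seen.

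Genes that most resembled the leading isotype of each class were taken from 10140 named genes averaging 10 TPM or more, by Pearson's r of log2(TPM + 1) over the 8 libraries, as a description. For Tuba1a they were Gypc (r = 0.95), Acot7 (0.95) and Agk (0.95). For Tubb4b they were Mex3c (0.95), Lmbr1 (0.95) and Klhl21 (0.95). No other tubulin was among them. How high the top r would be by chance, over 10140 genes and 8 libraries, was not computed.

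Other genes of the microtubule system also lay near the background. In 5 lists with 105 genes, 98 were tested, none changed by limma-trend over all genes, and 4 (4.08%) had an unadjusted p under 0.05, against 6.05% of all tested genes. Groups did not overlap for 2 of the 98 (2.04%), against 3.99%. Of the 98, 60 were higher in homo (61.2%), against 56.3%. List medians of the log2 fold change ranged from 0.01 to 0.13, beside 0.02 for all tested genes.

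Among the remaining tubulins, Tubb3 included, 6 of 10 genes were tested. Tuba3a and Tubal3 were listed at 0 in every library, Tuba3b reached 0.06 TPM at most, and Tubb1, the platelet isotype, averaged 0.19 TPM. Tuba8, which like Tuba4a is known to lack the encoded tyrosine, had 1.54, 1.71, 1.7 and 2 TPM across hete against 1.82, 1.63, 0.68 and 0.83 across homo. Homo replicates 3 and 4 lay below all others (log2 fold change -0.32, SE 0.20, adjusted p = 0.87 by limma-trend). Gamma tubulin, which nucleates microtubules, came mainly from Tubg1, at 29.1 ± 2.96 TPM for hete against 26.3 ± 3.59 for homo (± SD, n = 4 a group), while Tubg2 had 5.61 ± 0.83 and 6.70 ± 0.91 (± SD, n = 4 a group). Delta and epsilon tubulins, Tubd1 and Tube1, which belong to centrioles, averaged 8.57 and 2.37 TPM.

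The gamma-tubulin ring complex and its anchors had 9 of 13 genes higher and 4 lower (median 0.09). Tubgcp2, a core subunit of the ring, had 19.81, 21.31, 19.64 and 19.66 TPM across hete against 23.56, 24.17, 25.95 and 23.02 across homo. The lowest homo value exceeded the highest hete value, but the difference did not pass over all genes (log2 fold change 0.25, SE 0.07, limma-trend unadjusted p = 0.00417, adjusted p = 0.623). Akap9, a large scaffold that anchors the complex, had 0.29 (SE 0.12), and Mzt1, a small subunit of the complex with the highest level in this list, 0.13 (SE 0.06).

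Folding of tubulin needs the chaperonin CCT, prefoldin and the cofactors TBCA to TBCE. Of 22 such genes, with the autoregulation factor Ttc5, 15 were higher and 7 lower (median 0.05). Tcp1, a CCT subunit, had 162 ± 11.0 TPM for hete against 181 ± 9.87 for homo (± SD, n = 4 a group, log2 fold change 0.16, SE 0.07). Tbce, a cofactor of alpha tubulin, had 61.01, 66.66, 63.42 and 62.45 TPM across hete against 58.51, 48.88, 58.67 and 60.41 across homo. All homo values lay below all hete values, without passing over all genes (-0.16, SE 0.08, adjusted p = 0.83 by limma-trend). Pfdn2, a prefoldin subunit, had -0.21 (SE 0.09), and Tbca, a beta tubulin cofactor and the most abundant of the list at 318 TPM on average, -0.09 (SE 0.09). Ttc5 stood at 54.8 ± 2.98 and 58.3 ± 2.81 TPM (± SD, n = 4 a group).

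Of the tubulin-modifying enzymes, 20 of 23 were tested, 11 higher and 9 lower (median 0.02). Ttll1, the catalytic subunit of a polyglutamylase, had 0.19 (SE 0.09). Vash1 and its partner Svbp, which remove the terminal tyrosine of alpha tubulin, had -0.20 (SE 0.13) and -0.12 (SE 0.07), and Ttl, the ligase that restores it, had -0.03 (SE 0.09). Sirt2, a deacetylase and the most abundant of the list at 130 TPM on average, had 0.11 (SE 0.09), and the acetyltransferase Atat1 -0.06 (SE 0.12). Limma-trend adjusted p values of these 6 genes ran from 0.83 to 0.979.

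Microtubule-associated and severing proteins had 21 of 37 genes higher and 16 lower (median 0.01). Map1s, which binds microtubules and is widely expressed, had 17.9 ± 1.51 TPM for hete against 20.5 ± 1.45 for homo (± SD, n = 4 a group, log2 fold change 0.19, SE 0.08, adjusted p = 0.819 by limma-trend). Map7d1 had -0.11 (SE 0.06) and Stmn1, which binds free tubulin dimers, 0.03 (SE 0.08) at 213 TPM on average. The highest estimates were those of Stmn4 (0.51, SE 0.37) and Stmn2 (0.43, SE 0.33), chosen after their values were seen. Stmn2, a stathmin of growing axons, spread from 14.64 to 43.38 TPM over the libraries.

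**Figure D5:**
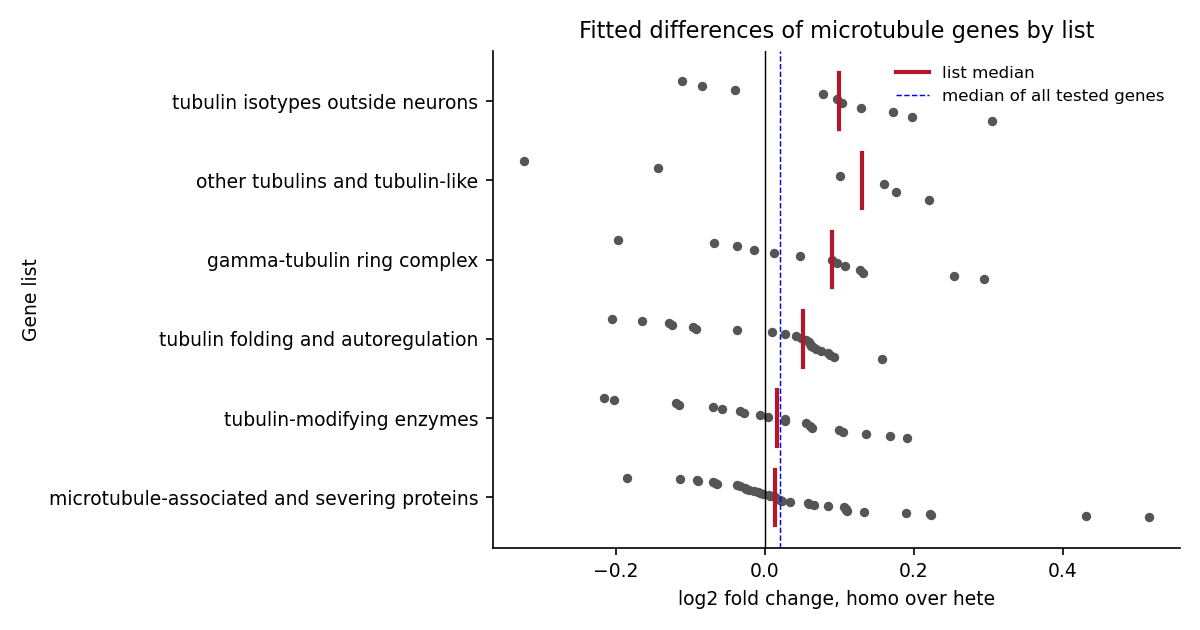
Fitted log2 fold change, homo over hete, of each tested gene (points) in the isotype set and 5 lists of microtubule genes, with each list's median (red bar) and the median of all tested genes (dashed). Medians lie between 0.01 and 0.13, and no gene shown changed after adjustment over all genes.

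For the libraries as a whole, 28159 to 28969 genes had a TPM above 0, and mitochondrial transcripts made up 8.69 to 10.4% of TPM. Dnajc17 itself was at 22.06 to 26.51 TPM in hete and 18.04 to 31.08 in homo (log2 fold change 0.07, adjusted p = 0.969 by limma-trend). This gene-level value does not show whether exons are missing in some cells, and so is no check of the labels. Library depth cannot be read from TPM and is unknown here, and no detection limit was computed.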

How the data were processed

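Messenger RNA of 8 basilar membrane libraries, 1 µg of total RNA each, was sequenced after stranded preparation, per the labels' protocols. The authors deposited gene values in TPM. The tools fastp, HISAT2, StringTie, RSEM and DESeq2, and build GRCm39, appear, per the submitters' processing notes, with no version and no role. Groups came from sample titles. Values were analysed as log2(TPM + 1) with limma 3.58.1 in R 4.3.3 (trend and robust eBayes, genotype as the only term), keeping genes that averaged 1 TPM or more, after the steps were tested on simulated data. Sums, shares and marker relations were computed in Python 3.11.15, figures with matplotlib 3.10.9. Coding sequences came from GENCODE M21 (GRCm38), a build other than that of the values, and gene order from RefSeq on GRCm38.p6. Members, lists and tests were chosen with earlier results of these data known. Beside the 10 members and Tubb3, named genes were the 3 smallest p and the highest mean of each pathway list, the 2 highest markers of lists described, and the 3 genes most like the leading isotypes. Other list genes were named for their roles after their values were seen. Alternatives were 2 scalings, 2 filters, a pseudocount of 0.1, non-robust eBayes, a replicate block and each library left out. The deposited splicing and ontology enrichment tables were not used. A gene and some sequences that these rules select are not reported here.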

Additional observations from a re-analysis of the deposited data

Results flagged for a closer look

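Within each group of 4 libraries, a value was singled out when its gap to the nearest other library exceeded Dixon's 95% critical share of the group's range. This picked 2 of 46 groups of values, and chance picks about 1 in 20, or 5%. Tubb6 in hete replicate 2 stood at 22.73 TPM, where the other hete libraries had 20.89, 20.86 and 20.63. Tubb5 in hete replicate 4 held 27.8% of the beta sum, where the other hete libraries had 31.6, 32.2 and 32.2%.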

How the results depend on the processing

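No isotype changed under any alternative run, and their adjusted p ranged from 0.692 to 0.993 over those. The genes called over the whole table numbered 1 with no filter on low values and 1 with the replicate block, against 2, and 1 to 5 when each library was left out. Same-numbered libraries did not deviate together over the tested genes as a whole (correlations of -0.08 to 0.05 over genes, own number highest for 1 of 4). A correlation over all genes cannot show whether they share a batch that moves fewer genes, and the titles give only a number. With the block the count of isotypes called was still 0 and their median log2 fold change 0.10. Unadjusted p under 0.05, which no isotype had, appeared for Tubb5 with the block (0.0411), for Tubb4a (0.0136) and Tubb2b (0.0187) without hete replicate 2, and for Tubb4b (0.0464) without homo replicate 1. Both scalings kept the sign of all 10 isotypes. Over left-out libraries the median ranged from 0.06 to 0.15, Tuba4a from -0.11 to 0.09 and Tubb3 from -0.17 to 0.30. Those were the genes whose sign turned, in 4 of 165 refits of the 10 isotypes and Tubb3: Tuba4a was 0.01 without hete replicate 4 and 0.086 without homo replicate 2, and Tubb3 -0.17 without hete replicate 1 and -0.12 without homo replicate 4. The cause was not tested. With group-centred values, whose permutation p is approximate, 1 marker relation passed, and after rescaling 2, against 3. With 4 libraries a group, the 95% intervals reached 0.13 to 0.36 either side of an isotype's estimate, before adjustment over all genes, so the size needed for a call is larger.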
